A study of Rattus norvegicus with 9 samples.

Results

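Complex I, the NADH:ubiquinone oxidoreductase of mitochondria, was followed here through 41 probe sets of an Affymetrix-type rat array, out of 31099 in the deposited table. They are the probe sets for which all gene symbols in the platform annotation belong to complex I subunits named Ndufa, Ndufb, Ndufc, Ndufs or Ndufv with a number, or to Ndufab1, and they stand for 38 of 14545 annotated gene entries. Assembly factors (Ndufaf) were left out by that rule. The arrays held total RNA of rat hippocampus, labelled as coming from its neurons, in 3 groups of 3 arrays: ketone bodies for 1 h, ketone bodies for 6 h, and control in artificial cerebrospinal fluid with no ketone bodies. The sources used here do not give the strain, sex, age, ketone dose or the exposure time of the control. Nothing says that replicates are separate animals or cultures, so the tests below measure the spread between these 9 arrays, which may be technical.

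Complex I takes electrons from NADH and passes them through a flavin and a chain of iron-sulfur clusters to ubiquinone, and it pumps protons across the inner membrane as it does so. Its peripheral arm holds the N module, where NADH is oxidised, and the Q module, where ubiquinone is reduced. The membrane arm is built of modules around the mitochondrially encoded ND1, ND2, ND4 and ND5 proteins. Nuclear genes supply core subunits, which carry the cofactors and the quinone site, and many accessory subunits that stabilise the enzyme. Ketone bodies are oxidised in mitochondria and yield NADH, a substrate of this complex, and neurons depend heavily on it for ATP. The core subunits described here number 6.

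The windows from 250 bases before to 50 bases after the transcription start were taken from RefSeq (build GRCr8) for 36 of the 38 genes. Ndufa8 and Ndufb9 had no entry. On either strand, 4 short letter strings were searched that stand for factors known to act on nuclear mitochondrial genes: GCGCANGCG for NRF1, CCGGAAG for the ETS factor GABPA, TCAAGGTCA for the oestrogen-related receptor ERR alpha and AAGATGGCG for YY1. No match overlapped one of another motif. The NRF1 letters were in 9 of 36 windows (25%, against 8.05% of 19005 windows of protein-coding genes) and the GABPA letters in 7 (19.4%, against 11.2%). The YY1 letters were in 7 windows (19.4%, against 2.29%) and the ERR alpha letters in 0 (against 0.353%). In all 7 the YY1 letters read along the gene's strand and lay between 5 and 35 bases after the start, and of the 435 windows of all genes that hold them, 56.1% have them after the start. A match describes the letters only, and no binding was measured. The YY1 string itself contains ATG, the letters of a start codon. Whether it marks the beginning of the coding sequence in these windows was not tested.

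The windows shown are of Ndufa2 and Ndufb8, which had the smallest p-values at 1 h, of Ndufa6, whose window has matches to 3 of the motifs, of Ndufs8, a core subunit, and of Ndufs1, a core subunit whose level hardly differed. Capitals mark matches, in the order of the gene's own strand. The Ndufa2 window lies at chr18:28631835-28632134 (minus strand) with GABPA letters at -146 to -140 from the start and YY1 letters from 27 bases after it. That of Ndufb8 lies at chr1:253362887-253363186 (minus strand) with YY1 letters from 22 bases after the start. That of Ndufa6 lies at chr7:115750268-115750567 (minus strand) with GABPA, NRF1 and YY1 letters in that order. That of Ndufs8 lies at chr1:210573649-210573948 (minus strand) and that of Ndufs1 at chr9:72073556-72073855 (minus strand), each with GABPA letters.
Ndufa2: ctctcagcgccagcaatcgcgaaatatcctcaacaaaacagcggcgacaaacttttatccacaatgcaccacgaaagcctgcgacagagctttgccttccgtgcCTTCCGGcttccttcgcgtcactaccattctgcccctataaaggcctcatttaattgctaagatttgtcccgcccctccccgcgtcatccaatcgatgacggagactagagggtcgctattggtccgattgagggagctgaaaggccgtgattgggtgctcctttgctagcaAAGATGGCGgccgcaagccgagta
Ndufb8: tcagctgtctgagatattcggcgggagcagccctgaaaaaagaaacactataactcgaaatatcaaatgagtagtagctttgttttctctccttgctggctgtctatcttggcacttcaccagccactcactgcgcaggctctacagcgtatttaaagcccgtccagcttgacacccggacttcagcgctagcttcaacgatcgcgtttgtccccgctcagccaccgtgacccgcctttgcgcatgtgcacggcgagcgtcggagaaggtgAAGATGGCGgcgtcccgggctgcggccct
Ndufa6: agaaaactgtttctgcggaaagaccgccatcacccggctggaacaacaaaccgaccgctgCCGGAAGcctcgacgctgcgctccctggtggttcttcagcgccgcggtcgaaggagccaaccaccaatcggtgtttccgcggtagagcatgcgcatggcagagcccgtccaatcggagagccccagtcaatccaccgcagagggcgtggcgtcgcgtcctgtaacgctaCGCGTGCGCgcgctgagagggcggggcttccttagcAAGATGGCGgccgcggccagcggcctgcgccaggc
Ndufs8: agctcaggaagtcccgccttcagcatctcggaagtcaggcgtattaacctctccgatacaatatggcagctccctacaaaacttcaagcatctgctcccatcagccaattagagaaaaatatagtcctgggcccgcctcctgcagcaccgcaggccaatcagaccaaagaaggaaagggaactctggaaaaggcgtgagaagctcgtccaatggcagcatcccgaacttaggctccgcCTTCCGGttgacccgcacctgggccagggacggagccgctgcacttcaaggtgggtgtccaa
Ndufs1: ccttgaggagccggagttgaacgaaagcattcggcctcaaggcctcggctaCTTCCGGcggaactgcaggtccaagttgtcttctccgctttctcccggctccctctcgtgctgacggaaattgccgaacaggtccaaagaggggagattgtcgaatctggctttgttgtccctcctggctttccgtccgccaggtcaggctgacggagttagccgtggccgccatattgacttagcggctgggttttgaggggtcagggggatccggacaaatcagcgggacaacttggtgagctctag

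All 41 probe sets passed the filter on low signal, with mean levels from log2 5.78 (the dimmer Ndufa9 probe set) to 11.94 (Ndufb9). Levels are log2(signal + 16) after quantile normalization, and the filter lies at 5.21. Brightness differs between probes, so levels are not set against each other between genes. As a check of the tissue, the neuronal markers Snap25 (12.58) and Map2 (11.47) were bright, but so were Mbp of myelin (12.62) and Gfap (11.02) and Aqp4 (11.73) of astrocytes, so the RNA also holds transcripts of glia. Less of a transcript per cell and fewer cells that make it cannot be told apart in such samples. The groups as a whole did not separate: correlations over the 18625 tested probe sets ran from 0.949 to 0.987 within groups and from 0.945 to 0.988 between groups. On the first principal component, with 45.0% of the variance, the arrays 6 h replicate 1 and 1 h replicate 3 stood farthest out.

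After 1 h of ketone bodies, complex I probe sets lay above control almost throughout, by small amounts and with no single member passing the test over all probe sets. A positive log2 change was found in 39 of 41, against 55.3% of all tested probe sets, with a median of 0.22, against 0.029 over all tested. With all tested probe sets split by mean level into 5 groups of equal size, the brightest group held 35 of the 41, and its median over all its probe sets was 0.018. By limma with Benjamini-Hochberg adjustment 0 of 41 passed an adjusted p of 0.05 (lowest adjusted p = 0.242), where 0.0322% of all probe sets passed. At unadjusted p under 0.05 there were 21 above control, against 6.68% of all tested, and 0 below it, against 4.67%. In 23 of 41 all the 1 h arrays lay above all control arrays, against 13.0% of all tested. The unadjusted count was 10 without control replicate 3 and 10 without 1 h replicate 3, and the median was then 0.17 and 0.20. It was 12 when the 2 arrays named above were both left out. With arrays centred on their medians it was 35, with a median of 0.38, while the median of all tested probe sets was then 0.096. It was 13 without the intensity trend, and it was 3, with a median of 0.089, with the level of the haemoglobin gene Hbb as a covariate. Hbb itself differed between the ketone and control arrays, so it cannot be told apart from the groups.

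The accessory subunit Ndufa2, a small thioredoxin-like protein of the N module, had log2 levels of 10.38, 10.58 and 10.44 at 1 h, against 10.08, 9.91 and 9.99 in control. Every 1 h array was above every control array, and the log2 change was 0.47 ± 0.09 (SE, n = 3 arrays per group throughout), a fold of 1.39 (adjusted p = 0.242). Ndufa6, which belongs to the LYR family and binds an acyl carrier protein in the N module, had 10.39, 10.60 and 10.39 at 1 h, against 10.22, 10.17 and 9.94 in control (0.36 ± 0.11, adjusted p = 0.352). The groups did not overlap here either. Ndufs4, whose loss in mice causes an encephalopathy and which holds the N module in place, had 8.03, 7.91 and 7.97 at 1 h, against 7.82, 7.76 and 7.67 in control (0.22 ± 0.10). Ndufa12 had 0.19 ± 0.08, and the zinc-binding subunit Ndufs6 had 0.14 ± 0.07.

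The core subunits of the N module, where NADH is oxidised, had log2 changes from 0.00 to 0.17 at 1 h. Ndufs1, the largest iron-sulfur subunit, had 10.21, 10.22 and 10.28 at 1 h, against 10.14, 10.28 and 10.29 in control, and a log2 change of 0.00 ± 0.08. Its groups overlapped fully. Ndufv1, which holds the flavin, had 10.57, 10.40 and 10.56 at 1 h, against 10.50, 10.47 and 10.27 in control (0.10 ± 0.09). Ndufv2, its iron-sulfur partner, had 11.01, 11.03 and 10.90 at 1 h, against 10.67, 10.93 and 10.82 in control (0.17 ± 0.13). Both pairs of groups overlapped, and none of these 3 core subunits reached an unadjusted p of 0.05. Over the 12 probe sets of the N module, 11 had a positive change, against 55.3% of all tested, with a median of 0.19. At unadjusted p under 0.05, 5 were above control, against 6.68% of all tested.

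The Q module, next to the ubiquinone site, had positive changes in all 6 probe sets, against 55.3% of all tested. The module's median was 0.31, and 5 were above control at unadjusted p under 0.05, against 6.68% of all tested. Its core subunit Ndufs8, a ferredoxin-like protein that carries the clusters on the way to ubiquinone, had 9.94, 9.86 and 9.90 at 1 h, against 9.66, 9.59 and 9.37 in control (0.36 ± 0.10, adjusted p = 0.334). Ndufs3, a core subunit without a cofactor, had 10.26, 10.18 and 10.40 at 1 h, against 10.03, 10.06 and 9.61 in control (0.38 ± 0.13). Ndufs7, which carries the last cluster before ubiquinone, had 10.47, 10.41 and 10.52 at 1 h, against 10.33, 10.33 and 10.05 in control (0.23 ± 0.10). In each of these 3 core subunits all 1 h arrays lay above all control arrays, with control replicate 3 the lowest array. The accessory Ndufa5 had 0.39 ± 0.13. Whether the Q and N modules differ in their shift was not tested.

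**Figure D1:**
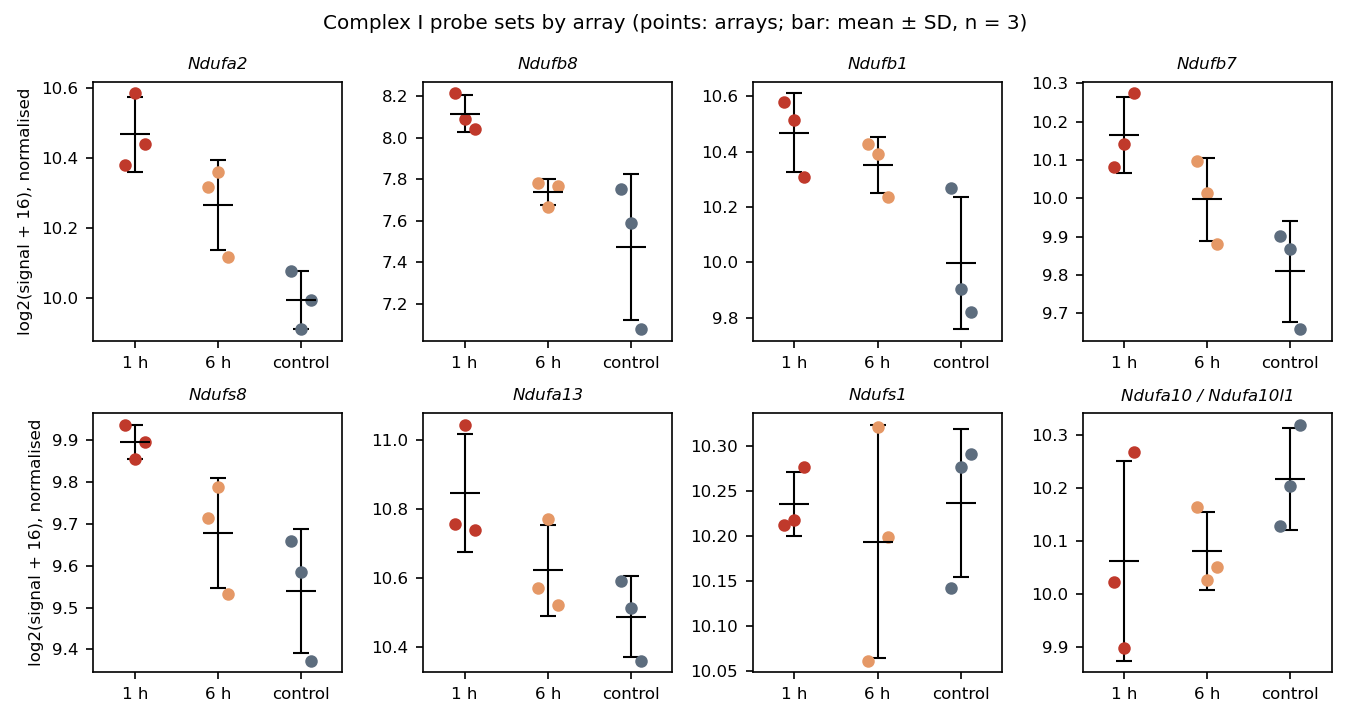
Levels of 8 complex I probe sets on each array, as normalised log2(signal + 16) on the vertical axis, which does not start at 0 and differs between panels. The points are arrays of the 1 h, 6 h and control groups from left to right, and bars are the mean ± SD (n = 3). Ndufa2 had 10.38 to 10.58 at 1 h, above its control range of 9.91 to 10.08, while the groups of Ndufs1 overlap.

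In the membrane arm the ND5 module, at its far end, held the biggest log2 change among the 41 probe sets. Ndufb8, an accessory subunit often used as an antibody marker of the assembled enzyme, had 8.21, 8.09 and 8.04 at 1 h, against 7.75, 7.59 and 7.08 in control. The groups did not overlap, and the change of 0.64 ± 0.16 was a fold of 1.56 (adjusted p = 0.300), with control replicate 3 the lowest array. Ndufb7, a disulfide-bridged subunit of the intermembrane side, had 10.08, 10.14 and 10.27 at 1 h, against 9.90, 9.87 and 9.66 in control (0.36 ± 0.10, adjusted p = 0.321). Ndufb2 had 0.25 ± 0.10 and Ndufb3 0.14 ± 0.06. At the other extreme the LYR protein Ndufb9 had 11.93, 11.96 and 11.99 at 1 h, against 11.90, 11.92 and 11.95 in control, a log2 change of 0.03 ± 0.05. All 5 probe sets of the module were positive, against 55.3% of all tested, with a median of 0.25.

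In the ND4 module all 6 were positive, against 55.3% of all tested probe sets, with a median of 0.21. Ndufb1, a small single-pass membrane subunit, had 10.58, 10.52 and 10.31 at 1 h, against 10.27, 9.90 and 9.82 in control (0.47 ± 0.12, a fold of 1.39, adjusted p = 0.318). The lowest 1 h array and the highest control array were close. Ndufb11 had 0.32 ± 0.12, Ndufb6 0.22 ± 0.07 and Ndufb10 0.21 ± 0.08. Those of Ndufb5 (0.09 ± 0.08) and Ndufb4 (0.07 ± 0.07) were near their standard errors.

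Near the junction of the arms, in the ND1 module, Ndufa13, known in human cells as GRIM-19, had 10.76, 11.04 and 10.74 at 1 h, against 10.59, 10.51 and 10.36 in control (0.36 ± 0.11, adjusted p = 0.340). Ndufa8 had 0.23 ± 0.11, Ndufa3 0.17 ± 0.10 and Ndufa1, an X-linked gene, 0.09 ± 0.05. All 4 probe sets of the ND1 module had all 1 h arrays above the whole control range, against 13.0% of all tested. In the ND2 module Ndufa11 had 9.76, 9.90 and 9.76 at 1 h, against 9.60, 9.51 and 9.37 in control (0.31 ± 0.10), and Ndufc1 and Ndufc2 had 0.12 ± 0.08 and 0.10 ± 0.09. The probe set listed for Ndufs5 and its pseudogene Ndufs5-ps2 had 0.22 ± 0.09.

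The most negative change at 1 h was that of the probe set listed for Ndufa10 and the related Ndufa10l1, which resemble deoxyribonucleoside kinases. It had 10.02, 9.90 and 10.27 at 1 h, against 10.13, 10.20 and 10.32 in control, a log2 change of -0.15 ± 0.10 (adjusted p = 0.564). The groups overlapped, and the sign turned with arrays centred on their medians (0.0021) and with Hbb as a covariate (0.054). Since it is listed with both genes, its signal cannot be assigned to either. Ndufab1, the mitochondrial acyl carrier protein that also serves fatty acid synthesis, had 0.05 ± 0.07. Ndufa4, named for complex I but counted with complex IV, had 11.90, 12.11 and 12.06 at 1 h, against 11.92, 11.99 and 11.83 in control (0.11 ± 0.08). Its paralogue Ndufa4l2, which hypoxia induces in human and mouse cells, was dim, with 6.82, 6.46 and 6.00 at 1 h, against 6.02, 5.83 and 5.73 in control (0.56 ± 0.20). Its lowest 1 h array lay within the control range.

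Ndufv3, Ndufa7 and Ndufa9 each had a bright and a dim probe set. For Ndufv3 the bright one had 10.13, 9.87 and 10.25 at 1 h, against 9.88, 9.85 and 9.86 in control (0.22 ± 0.10), and the dim one had 6.45, 6.35 and 6.41, against 6.15, 5.88 and 6.15 (0.34 ± 0.15). For Ndufa9 the bright one had 10.39, 10.56 and 10.60 at 1 h, against 10.17, 10.40 and 10.21 in control (0.26 ± 0.10), and the dim one 5.94, 5.93 and 5.79, against 5.87, 5.79 and 5.56 (0.15 ± 0.15). Those pairs had the same sign and lay within their errors of each other. For Ndufa7 the bright one had 10.59, 10.65 and 10.57 at 1 h, against 10.29, 10.66 and 10.78 in control (0.03 ± 0.13), and the dim one had 7.49, 7.42 and 7.42, against 7.24, 7.33 and 7.17 (0.19 ± 0.13). Only in its dim probe set did the groups not overlap.

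**Figure D2:**
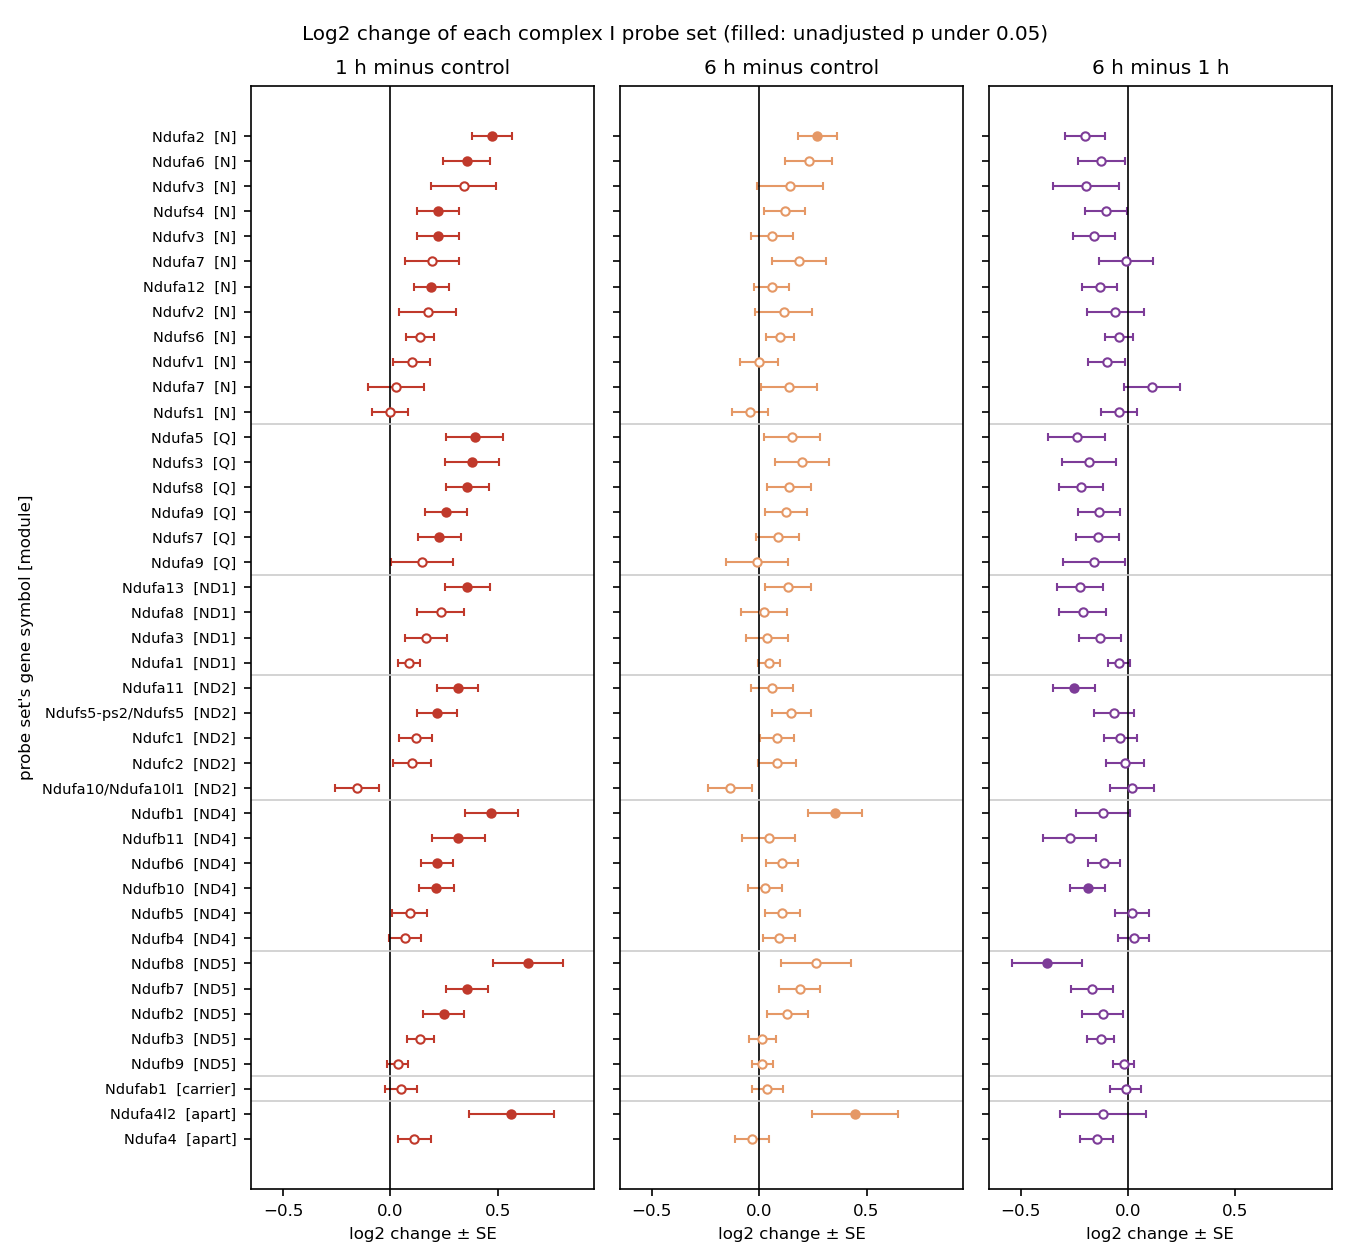
Log2 change ± SE of each of the 41 probe sets (rows, grouped by module) for 1 h minus control, 6 h minus control and 6 h minus 1 h, from left to right, with filled points at unadjusted p under 0.05. At 1 h, 39 of 41 lie right of 0; at 6 h, 36 do; in the difference of 6 h and 1 h, 37 lie left of 0.

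After 6 h the same probe sets stood closer to control. A positive log2 change was found in 36 of 41, against 53.8% of all tested, with a median of 0.097, against 0.015 over all tested. By limma 0 of 41 passed an adjusted p of 0.05 (lowest adjusted p = 0.987), where 0.0268% of all tested did. At unadjusted p under 0.05, 3 were above control (2.79% of all tested) and 0 below it (1.47%). In 5 of 41 all 6 h arrays lay above all control arrays, against 6.05% of all tested. Without 6 h replicate 2 the median was 0.047, and without control replicate 3 it was 0.063. The unadjusted count was 0 without control replicate 2, 1 without control replicate 3 or 6 h replicate 2, 6 without control replicate 1 and 5 without 6 h replicate 1 or 6 h replicate 3.

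Ndufa2 had 10.32, 10.36 and 10.12 at 6 h, against 10.08, 9.91 and 9.99 in control (0.27 ± 0.09), again with no overlap. Ndufb1 had 10.43, 10.39 and 10.23 at 6 h, against 10.27, 9.90 and 9.82 in control (0.35 ± 0.12), with 6 h replicate 3 inside the control range. Ndufa4l2 had 6.18, 6.48 and 6.25 at 6 h, against 6.02, 5.83 and 5.73 in control (0.45 ± 0.20). Those 3 made up the unadjusted count, and each had an adjusted p of 0.987. Ndufa6, next in order, had 10.33, 10.49 and 10.18 at 6 h, against 10.22, 10.17 and 9.94 in control (0.23 ± 0.11). Among core subunits Ndufs3 had 0.20 ± 0.13, Ndufs8 0.14 ± 0.10, Ndufv2 0.11 ± 0.13, Ndufs7 0.09 ± 0.10, Ndufv1 0.00 ± 0.09 and Ndufs1 -0.04 ± 0.08. The Ndufa10 and Ndufa10l1 probe set had 10.16, 10.03 and 10.05 at 6 h, against 10.13, 10.20 and 10.32 in control (-0.14 ± 0.10).

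Set directly against 1 h, 6 h was lower in 37 of 41 probe sets, against 53.0% of all tested, with a median log2 change of -0.13, against -0.012 over all tested. By limma 0 of 41 passed an adjusted p of 0.05 (lowest adjusted p = 0.996), and 0% of all tested did. At unadjusted p under 0.05, 3 were lower (1.41% of all tested) and 0 higher (1.31%). All 6 h arrays lay below all 1 h arrays in 7 of 41, against 4.04% of all tested. Ndufa11 had 9.51, 9.46 and 9.69 at 6 h, against 9.76, 9.90 and 9.76 at 1 h (-0.25 ± 0.10). Ndufb8 had 7.78, 7.67 and 7.77 at 6 h, against 8.21, 8.09 and 8.04 at 1 h (-0.38 ± 0.16). In Ndufb10 the levels were 10.52, 10.51 and 10.44 at 6 h, against 10.65, 10.66 and 10.72 at 1 h (-0.19 ± 0.08). The groups did not overlap in these 3, each with an adjusted p of 0.996. The unadjusted count of lower probe sets was 0 without 6 h replicate 1, 1 without 6 h replicate 3, 5 without control replicate 3 and 8 without 6 h replicate 2. The moderated F test for any difference among the 3 groups passed 0 of 41 (lowest adjusted p = 0.442), where 0.0215% of all tested passed, and 13 of 41 had an unadjusted p under 0.05, against 6.36%.

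Array by array, the mean of the 41 probe sets relative to their control means was 0.22, 0.22 and 0.23 on the 1 h arrays, 0.086, 0.19 and 0.040 on the 6 h arrays, and 0.032, 0.039 and -0.071 on the control arrays. The 1 h arrays were close to each other and above all others. The 6 h arrays spread over the gap between the other groups, with replicate 2 near the 1 h arrays and replicate 3 near control. Within groups the probe sets had a median SD of 0.12, against 0.19 over all tested. Their deviations from group means had a mean pairwise correlation of 0.19 over the 9 arrays, against 0.0094 over all tested probe sets. Both values are descriptions, since the members share the arrays. The brightest of 5 groups by mean level held 35 of the 41, and neither value was compared at matched level.

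Other measures moved beside this shift. The log2 ratio of 3' to 5' signal of the beta-actin control probe sets, a measure of RNA degradation and labelling length, was 1.39, 2.16 and 2.02 at 1 h, 2.58, 1.92 and 1.03 at 6 h, and 1.37, 1.27 and 1.42 in control. At 1 h it exceeded control by 0.50 (exact 2-sided permutation p = 0.2, n = 3 per group, adjusted 0.6 over 3 comparisons), and 3 against 3 cannot go below 0.1. The same ratio of the Gapdh control probe sets was 0.11 ± 0.04 at 1 h, 0.19 ± 0.23 at 6 h and 0.13 ± 0.11 in control (SD, n = 3 each), with a difference of -0.025 at 1 h (exact 2-sided permutation p = 0.8, adjusted 0.9) and of 0.058 at 6 h (exact p = 0.8, adjusted 0.9). With the ratio as a covariate the median at 1 h was 0.19, and 13 probe sets were above control at unadjusted p under 0.05. Of the blood markers, Hba-a1 was not analysed, while the haemoglobin gene Hbb had 11.94, 12.28 and 11.98 at 1 h, 11.86, 12.14 and 11.98 at 6 h, and 11.71, 11.84 and 11.48 in control, with both ketone groups above control. Its log2 change was 0.39 ± 0.12 at 1 h (adjusted p = 0.335). Alas2, of haem synthesis in red cells, had 0.18 ± 0.16. Summed, the blood markers had signals of 4032 to 5043 at 1 h, 3819 to 4609 at 6 h and 2928 to 3750 in control. Nearly all of that sum is Hbb (mean level log2 11.91, against 6.853 for Alas2), so it is no separate measure of blood. With the Hbb level as a covariate the complex I median was 0.089 at 1 h and 0.032 at 6 h. Over all tested probe sets it was 0.052 and 0.030. In that fit 3 complex I probe sets were above control at 1 h at unadjusted p under 0.05. Since Hbb was higher on every ketone array than on every control array, its part cannot be told apart from that of the groups.

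Marker lists of other cells were read by the same fit, and 0 of their members passed an adjusted p of 0.05 at 1 h. Over all tested probe sets, 0.0322% passed and 55.3% had a positive change. Excitatory neuron markers were below control at 1 h in 8 of 8, with a median log2 change of -0.41 and summed signals of 5139 to 5442 at 1 h, 4927 to 5694 at 6 h and 6096 to 6982 in control. Interneuron markers were above it in 4 of 6 (Slc32a1, Sst, Pvalb and Vip), with a median of 0.26. Gad1 (-0.0865) and the dim Gad2 (-1.3, mean level log2 6.3) were below it. Sums of the interneuron list were 5029 to 5401 at 1 h, 5030 to 5068 at 6 h and 4353 to 4902 in control. The general neuronal list was positive in 1 of 8 (median -0.086), and its sums were 19370 to 19600 at 1 h, 19080 to 19970 at 6 h and 20170 to 21260 in control. Endothelial markers were positive in 4 of 4 (median 0.12), with sums of 662.7 to 713 at 1 h, 644.1 to 756.3 at 6 h and 587.7 to 646.3 in control. Cldn5 had 0.183 and Flt1 0.191, but Tek (0.00154) and the dim Pecam1 (0.0473, mean level log2 5.316) hardly differed from control. Cdh5 was not analysed. The part of these lists in the complex I shift was not tested. Astrocyte sums (17040 to 18080 at 1 h, 16860 to 18790 at 6 h and 17380 to 18590 in control) and oligodendrocyte sums (21200 to 21890 at 1 h, 21280 to 22660 at 6 h and 21580 to 22010 in control) overlapped between the groups, as did those of microglia at 1 h and control (1350 to 1472, against 1300 to 1403). Choroid plexus markers were positive in 0 of 3 (median -0.079), and their sums were 3818 to 4204 at 1 h, 4450 to 4776 at 6 h and 4619 to 4782 in control. Those at 1 h lay below all others. Most of the summed choroid plexus signal is Ttr (mean level log2 12.09, against 6.475 or less for the other markers measured). No marker measured here had a signal of 0.

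**Figure D3:**
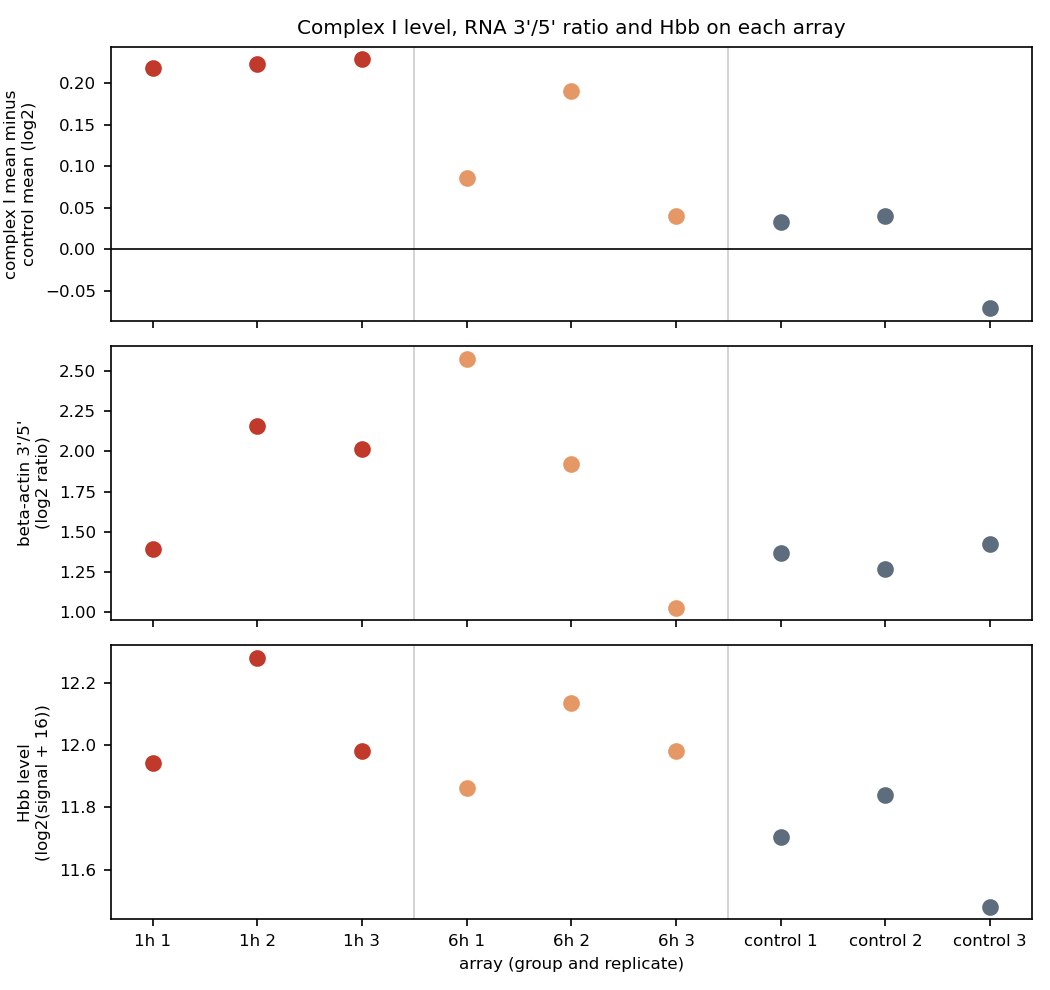
Mean log2 level of the 41 complex I probe sets minus their control mean (top), log2 3'/5' ratio of beta-actin (middle) and log2 level of Hbb (bottom) on each array, with 1 h, 6 h and control arrays from left to right. The 1 h arrays lie at 0.22 to 0.23 in the top panel, while their 3'/5' ratios run from 1.39 to 2.16, and Hbb lies above all control arrays on all ketone arrays.

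Lists of proteins that build and surround complex I were read by the same fit. Over all tested probe sets, 55.3% were positive at 1 h and 53.8% at 6 h. At unadjusted p under 0.05, 6.68% were above control at 1 h and 4.67% below it. Assembly factors, which mount the subunits and are not part of the finished enzyme, were measured by 14 tested probe sets of 13 genes. At 1 h, 12 were positive (median 0.22) and 4 were above control at unadjusted p under 0.05: Tmem186 (0.44 ± 0.12), Ndufaf5 (0.36 ± 0.13), Timmdc1 (0.33 ± 0.13) and Tmem126b (0.24 ± 0.10). Foxred1 had -0.23 ± 0.20 and Ndufaf4 -0.09 ± 0.11. At 6 h, 11 were positive (median 0.086). Of the 46 tested probe sets of complexes II to V, 42 were positive at 1 h (median 0.14), 15 were above control at unadjusted p under 0.05 and 0 below, and at 6 h 38 were positive (median 0.072). By complex the 1 h medians were 0.21 for complex II, 0.068 for complex III with cytochrome c, 0.13 for complex IV and 0.18 for complex V. Cytosolic ribosomal proteins, of no part in respiration, were positive at 1 h in 48 of 49 (median 0.15), with 21 above control at unadjusted p under 0.05. No test of a difference between complex I and these lists was made, and 0 of their members passed an adjusted p of 0.05 at 1 h or 6 h.

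Beside the motifs shown above, 15 of the 21 genes with a window and an unadjusted p under 0.05 at 1 h held at least 1 of the 4 letter strings, and so did 4 of the other 15 genes, against 19.4% of all windows. The YY1 letters were in 6 of the 21 and in 1 of the 15. The NRF1 letters were in 7 of the 21 and in 2 of the 15, and the GABPA letters in 5 and in 2. Whether these sets of genes differ was not tested, and the p-value that splits them is unadjusted. The windows of Ndufb1 and Ndufs3, with changes of 0.47 and 0.38 at 1 h, held none of the strings, while that of Ndufs1, with 0.00, held the GABPA letters.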

How the data were processed

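The deposited table holds linear signal intensity per probe set, 1 column per array. The sources used here name no software. The authors' scaling was read from the deposited values: their mean without the lowest and highest 2% is 150.05 on each array, and 0 values are at or below 0. No counts lie behind the intensities, so the number of arrays limits the precision.

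Processing followed an earlier analysis of these files, and the members, lists and motifs were chosen with earlier results of these data known. The 57 control probe sets were left out, values were taken as log2(signal + 16) and quantile normalized, and probe sets with a mean under the 40th percentile (log2 5.21) were dropped, which left 18625. Limma 3.58.1 in R 4.3.3 fitted 1 coefficient per group over all 9 arrays (6 residual degrees of freedom, intensity trend), with Benjamini-Hochberg adjustment over all tested probe sets. Log2 changes of dim probe sets are understated by the pseudocount. The platform annotation, which can be old, gave 20832 of 31099 probe sets a single symbol, 436 several symbols and 9831 no symbol. Several symbols stand beside 2 members.

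All members may be named. Values by array were given for the 6 members with the smallest p-values at 1 h, the 4 at 6 h, the 3 at 6 h against 1 h, the 3 lowest changes at 1 h, the highest and lowest level, genes with several probe sets and the core subunits. Ndufs4 and Ndufa4 were added after their values were seen. Modules were assigned from general knowledge. Alternatives were other scalings, pseudocounts, filters and variance models, a replicate block, fits of the compared groups alone, a single probe set per gene, a list without Ndufa4 and Ndufa4l2, and leaving out each array. Covariates for the 3'/5' ratio and Hbb, and leaving out 2 arrays together, were chosen after seeing the data. The fit was tested on simulated data with independent noise for each probe set. The changes planted there were larger than the complex I medians. That test therefore does not show how well shifts of the size described here are detected. Figures were drawn with matplotlib 3.10.9.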

Additional observations from a re-analysis of the deposited data

How the results depend on the processing

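Under all 24 alternatives 0 complex I probe sets passed an adjusted p of 0.05 in any comparison that could be made, as in the fit reported. The median log2 change at 1 h and 6 h against control kept its sign in all of them, and so did the median at 6 h against 1 h. Centring on array medians gave 0.378 at 1 h and 0.219 at 6 h, with 35 and 7 probe sets above control at unadjusted p under 0.05 and 1 positive at 6 h against 1 h. It also moved the median of all tested probe sets at 1 h to 0.096. Without the intensity trend 13 were above control at 1 h, and 13 with the 3'/5' ratio as a covariate. Lower probe sets at 6 h against 1 h numbered 5 with the values as deposited, array weights, only the compared groups or 1 probe set per gene. With array weights 8 were positive there. Without the 2 arrays farthest out, 12 were above and 1 below control at 1 h, 5 above at 6 h, and 0 lower and 8 positive at 6 h against 1 h. With Hbb as a covariate the medians were 0.0886 at 1 h and 0.0320 at 6 h, 3 were above control at 1 h, 1 above and 1 below it at 6 h, and 1 was lower at 6 h against 1 h. The causes of these moves were not tested, and the Hbb level cannot be told apart from the groups.

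With the replicate block, 7 were lower at 6 h against 1 h and no call at an adjusted p of 0.05 was gained or lost. The labels do not say whether replicate numbers pair the arrays, and the fit reported did not pair them. Same-numbered arrays of the 1 h and control groups had deviations from group means that correlated at 0.0937, -0.0956 and -0.347. Those of 6 h and control correlated at 0.539, 0.0307 and 0.265, and those of 6 h and 1 h at -0.0887, 0.525 and -0.36. Not every pair was over 0.1 in any comparison. With 3 arrays per group, these correlations cannot decide whether the arrays were paired. Leaving out 1 array gave 10 to 21 probe sets above and 0 to 1 below control at 1 h, 0 to 6 above at 6 h, and 0 to 8 lower and 2 to 7 positive at 6 h against 1 h.

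Of 367 recomputed changes of single genes, 12 turned sign, in 3 probe sets. Ndufs1 at 1 h was 0.054 as deposited, 0.158 with median centring, 0.014 with array weights, 0.025 with the 3'/5' ratio, and between -0.048 (without control replicate 1) and 0.026 (without control replicate 3) when 1 array was left out. The Ndufa10 and Ndufa10l1 probe set was 0.0021 with median centring and 0.054 with Hbb. The brighter Ndufa7 probe set was -0.037 with Hbb and between -0.12 (without control replicate 1) and 0.13 (without control replicate 3) when 1 array was left out. Probe sets under log2 7, such as Ndufa4l2, limit the size of a change that can be read.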
